A study of Mus musculus with 24 samples.

Results

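The Dlk1-Dio3 cluster is a stretch of mouse chromosome 12 in which protein-coding genes and long noncoding RNAs are expressed from opposite parental chromosomes. Of 7 listed genes, Dlk1, Rtl1, Rian, Mirg, Dio3 and Dio3os were matched to 6 of the 48985 rows of the count table, and Meg3 was not analysed here. The genes were listed by symbol, with earlier results of these data known, and Rian was matched by its identifier without the version number. RNA was measured in F121/9 cells, a female hybrid embryonic stem cell line that carries a set of 129/Sv and a set of CAST/EiJ chromosomes, and in clones derived from it. All 24 libraries came from cells grown without feeders on gelatin in serum-free medium with leukemia inhibitory factor, the MEK inhibitor PD0325901 and the GSK-3β inhibitor CHIR99021. Recombination d3 was sampled as a parental line, labelled control, and as recombined clones 12 and 21. Recombination i7 had a parental line and clones 7 and 12, and d6, i10 and i12 each had a parental line and a single clone, number 16, 18 and 10 respectively. Each of these 12 groups was a single line with 2 biological replicates, so a clone's difference and a recombination's difference cannot be told apart where only 1 clone was sampled. The labels do not give the rearranged locus. The study set clones against their parental lines to find expression changes on recombination.

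In mammals the paternal copy of the cluster normally expresses Dlk1, Rtl1 and Dio3, and the maternal copy expresses Meg3, Rian, Mirg and a large set of microRNAs and small nucleolar RNAs. A differentially methylated region upstream of Meg3, protected in the early embryo by zinc finger proteins such as ZFP57 and by TRIM28, sets which copy is used. Cultured pluripotent stem cells are known to gain or lose imprints at this cluster, and its noncoding RNAs have been used as a mark of developmental potency in mouse pluripotent cells. The hybrid carries a different strain on each parental chromosome, so the deposited table could give a 129S1 and a CAST count for each gene and library. Only 1 direction of the cross was used and the labels do not say which strain was the mother, so strain and parental origin cannot be told apart. The mitochondrial genes, which are inherited from the mother, had 89.5% to 94.3% of their counts assigned to 129S1 across the libraries.

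The RNA products of the cluster lie in intervals that can be seen in sequence. RefSeq lists 114 mature microRNAs from 58 hairpins between Dlk1 and Dio3 (GRCm38.p6), 106 of them on the plus strand, and 26 mature forms lie inside the interval of Mirg. Mirg was the only member with more counts from CAST in every library, so mature forms from its interval are shown, with a neighbour that shares a seed. The capitals mark the seed, bases 2 to 8 counted from the 5′ end, by which a microRNA pairs with its targets.
miR-453 (chr12:109735669-109735692, plus strand, inside Mirg): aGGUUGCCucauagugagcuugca
miR-496a-5p (chr12:109739132-109739152, plus strand, inside Mirg): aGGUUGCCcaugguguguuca
miR-410-5p (chr12:109743729-109743749, plus strand, inside Mirg): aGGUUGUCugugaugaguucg
miR-494-5p (chr12:109715334-109715355, plus strand, outside Mirg): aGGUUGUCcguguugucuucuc
The first pair shares the seed GGUUGCC and the second pair shares GGUUGUC, and 9 seeds of the cluster were held by more than 1 mature name. Poly(A) libraries of long RNA do not measure mature microRNAs, so the counts below are those of the long transcripts.

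Dio3 and Dio3os form the far end of the cluster and are transcribed away from each other. Both had most of their counts on the CAST allele, and for that reason their upstream sequences are shown, from 250 bases before to 50 bases after the RefSeq start, with each CG in capitals.
Dio3 (chr12:110278980-110279279, plus strand): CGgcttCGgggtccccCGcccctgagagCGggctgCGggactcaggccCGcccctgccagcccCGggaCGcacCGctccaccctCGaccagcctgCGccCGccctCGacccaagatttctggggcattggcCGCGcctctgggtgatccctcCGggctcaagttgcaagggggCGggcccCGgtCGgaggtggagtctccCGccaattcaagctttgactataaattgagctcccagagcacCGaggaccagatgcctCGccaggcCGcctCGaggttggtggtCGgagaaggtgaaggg
Dio3os (chr12:110278019-110278318, minus strand): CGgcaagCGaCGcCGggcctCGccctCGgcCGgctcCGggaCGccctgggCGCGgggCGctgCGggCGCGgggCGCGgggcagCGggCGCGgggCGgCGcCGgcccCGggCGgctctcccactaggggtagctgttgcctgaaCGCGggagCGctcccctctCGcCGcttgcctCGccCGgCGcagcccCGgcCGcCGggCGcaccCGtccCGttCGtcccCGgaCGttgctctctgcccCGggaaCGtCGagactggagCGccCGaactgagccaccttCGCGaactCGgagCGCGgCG
The dinucleotide CG, which reads the same on both strands and is the site of most DNA methylation in mammals, occurred 25 times in the Dio3 window and 53 times in the Dio3os window. Among 32851 RefSeq promoter windows of the same length the median was 7, 94.57% held at least 1, 18.4% held as many as Dio3 and 0.45% as many as Dio3os. The windows of Dlk1, Mirg and Rian held 9, 10 and 0. These counts are a description of sequence, and methylation was not measured.

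Total counts per library, both alleles added, ran from 3286819 to 15581094, and i10 and i12 were the shallowest recombinations with at most 6920899. A count of 3 was taken as the smallest detected, which was worth 0.198 to 0.907 CPM (counts scaled to library size). Stem cell markers summed to 6069 to 8551 CPM, with 9 of 9 measured markers above 1 CPM in the median library, and fibroblast markers to 3.93 to 25.7 CPM, with Dcn and Twist2 at 0 in every library. Markers of other lineages summed to 1.13 to 8.93 CPM for primitive endoderm, 50.2 to 152.6 for trophoblast, 4.23 to 50.7 for mesoderm and 31.8 to 78.3 for neuroectoderm, and their part in the levels of the cluster genes was not tested. In bulk RNA, fewer cells that express a gene and less RNA per cell cannot be told apart.

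The levels of the 6 genes spanned a wide range. Rian led with a median of 43.9 CPM per kilobase of exon over the 24 libraries, followed by Mirg with 7.04 and Dio3 with 1.22. Rtl1 had a median of 0.237, Dio3os of 0.115 and Dlk1 of 0.0594 CPM per kilobase. The ranges of Rian (29.0 to 55.4) and Mirg (3.65 to 11.2) did not overlap. Mirg and Dio3 (0.0647 to 3.76) overlapped only at their ends, and the ranges of Rtl1 (0.0749 to 0.458), Dio3os (0 to 0.701) and Dlk1 (0 to 0.234) overlapped each other, so no order is given among these. The noncoding RNAs of the maternal set were thus the abundant products, with 162911 counts for Rian and 10892 for Mirg in all libraries together. The protein-coding genes had fewer: 591 for Dio3, 334 for Rtl1 and 143 for Dlk1, and they were at or under the floor of 3 counts in 4, 2 and 12 of the 24 libraries.

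**Figure D1:**
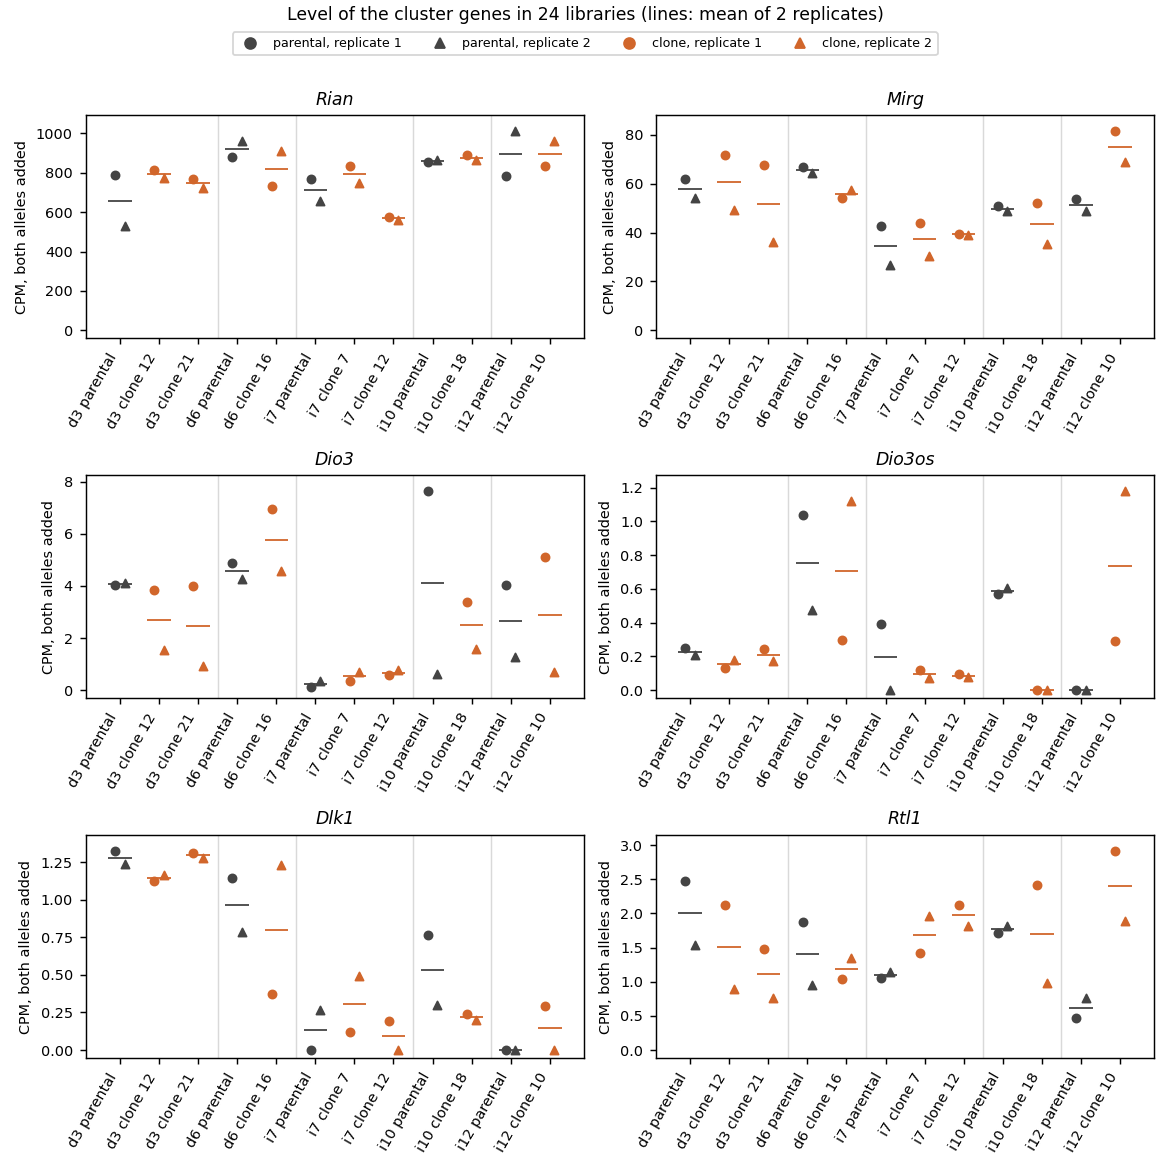
Level of each cluster gene in CPM, both alleles added, on a linear axis for each of the 12 groups; circles are replicate 1, triangles replicate 2, dark points parental lines, orange points recombined clones and horizontal lines the mean of 2 replicates. Rian lies between 529 and 1011 CPM in all libraries, Dio3 is below 0.76 CPM in all i7 libraries, and Dlk1 is above 1.1 CPM in all d3 libraries.

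Rian (ENSMUSG00000097451.11, chromosome 12, 109603940 to 109661716, plus strand, GRCm38) is the long noncoding RNA that hosts small nucleolar RNAs and several microRNAs. In d3 its level was 787 and 529 CPM in the parental line, 812 and 775 in clone 12 and 771 and 722 in clone 21. In d6 it was 881 and 964 CPM in the parental line and 732 and 912 in clone 16. In i7 it was 768 and 655 CPM in the parental line, 835 and 748 in clone 7 and 578 and 561 in clone 12. The libraries of i7 clone 12 were the lowest of i7 and lay below those of its parental line and of clone 7 without overlap, and 25.0% of all genes were below the parental line without overlap in this clone. The 4 mesoderm markers summed to 21.4 and 45.6 CPM in i7 clone 12, against 8.85 to 9.72 in its parental line and 8.46 to 9.48 in clone 7. The 8 fibroblast markers summed to 25.1 and 25.7 CPM, against 16.6 to 17.2 and 14.8 to 16.6, with Dcn and Twist2 at 0, and their part in the Rian level was not tested. The d3 parental line held the library with the lowest value of all. In i10 Rian was at 855 and 864 CPM in the parental line and 889.9 and 864 in clone 18, and in i12 at 785 and 1011 in the parental line and 832 and 964 in clone 10.

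Mirg (ENSMUSG00000097391.8, chromosome 12, 109729764 to 109749460, plus strand), a noncoding RNA further along the same strand, hosts microRNAs: 15 annotated microRNA genes overlap its interval. In d3 its level was 61.8 and 54.2 CPM in the parental line, 71.9 and 49.4 in clone 12 and 67.5 and 35.95 in clone 21. In d6 it was 66.7 and 64.3 CPM in the parental line and 53.9 and 57.3 in clone 16. In i7 it was 42.7 and 26.6 CPM in the parental line, 43.8 and 30.5 in clone 7 and 39.5 and 39.2 in clone 12. All 6 libraries of i7 were thus at or below 43.8 CPM, while the other 18 had a median of 54.1 and ranged from 35.4 to 81.4, so the ranges overlapped. In i10 Mirg was at 50.7 and 48.7 CPM in the parental line and 52.0 and 35.4 in clone 18, and in i12 at 53.5 and 49.0 in the parental line and 81.4 and 68.9 in clone 10. Replicate 1 was the higher in 11 of 12 groups.

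Dio3 (ENSMUSG00000075707.5, chromosome 12, 110279068 to 110281097, plus strand, annotated as a single stretch of 2030 bases) encodes type 3 deiodinase, which inactivates thyroid hormone. In d3 its level was 4.05 and 4.12 CPM in the parental line, 3.84 and 1.53 in clone 12 and 4.01 and 0.937 in clone 21. In d6 it was 4.89 and 4.25 CPM in the parental line and 6.96 and 4.59 in clone 16. In i7 it was 0.131 and 0.354 CPM in the parental line, 0.356 and 0.699 in clone 7 and 0.580 and 0.758 in clone 12, from 1 to 10 counts per library. Dio3 was therefore lower in i7 than in every d3 and d6 library. The share of all genes with such a separation was not counted. In i10 it was at 7.63 and 0.604 CPM in the parental line and 3.38 and 1.58 in clone 18, and in i12 at 4.05 and 1.28 in the parental line and 5.10 and 0.707 in clone 10. Replicates of 1 group differed by up to 12.6-fold, in the i10 parental line, so the low libraries of i10 and i12 overlapped with those of i7.

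Dlk1 (ENSMUSG00000040856.17, chromosome 12, 109452823 to 109463336, plus strand) encodes a transmembrane protein related to Notch ligands. In d3 it was at 1.32 and 1.23 CPM in the parental line, 1.12 and 1.17 in clone 12 and 1.31 and 1.28 in clone 21. In d6 it was at 1.14 and 0.788 CPM in the parental line and 0.370 and 1.23 in clone 16. Over the 14 libraries of i7, i10 and i12 it was at most 0.763 CPM, with a median of 0.196, and both i12 parental libraries held no count. Each d3 library was thus above every library of i7, i10 and i12. What share of all genes separated these recombinations in the same way was not counted. The d3 values rested on 12 to 17 counts per library, and 12 of the 24 libraries were at or under the floor of 3 counts.

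Rtl1 (ENSMUSG00000085925.3, chromosome 12, 109589193 to 109600330, minus strand) encodes a retrotransposon-derived protein needed in the placenta. Its interval overlaps 6 microRNA genes on the opposite strand, and how the counting treated strand was not given in the sources used here, so reads from the antisense transcript and from Rtl1 cannot be told apart. In i12 it was at 0.476 and 0.765 CPM in the parental line, from 2 and 3 counts, and at 2.91 and 1.89 in clone 10, from 20 and 8. In i7 it was at 1.05 and 1.15 CPM in the parental line, 1.42 and 1.96 in clone 7 and 2.13 and 1.82 in clone 12. The clones of i7 and i12 were above their parental lines without overlap, as were 13.8% of all genes in i7 clone 7, 24.2% in i7 clone 12 and 9.57% in i12 clone 10. In the remaining groups of d3, d6 and i10 Rtl1 ranged from 0.767 to 2.48 CPM.

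Dio3os (ENSMUSG00000113581.1, chromosome 12, 110275385 to 110278172, minus strand), the antisense-direction noncoding RNA next to Dio3, had 60 counts in all and at most 3 in 20 of 24 libraries. Its highest values were 1.18 CPM in replicate 2 of i12 clone 10, 1.12 in replicate 2 of d6 clone 16 and 1.04 in replicate 1 of the d6 parental line. Both libraries of the i12 parental line and of i10 clone 18 held no count, and no fold against them is given.

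Total counts in the clones were set against those of the parental lines to ask whether the cluster changed on recombination. No cluster gene was called in any of the 7 clone comparisons by edgeR's quasi-likelihood test with a Benjamini-Hochberg adjusted p under 0.05 over 16253 genes. All 6 genes passed the filter on low counts and were tested. Of all gene tests in these comparisons, 0.0149% were called, so few calls were made anywhere. Log2 changes of Rian ran from -0.32 in i7 clone 12 (SE 0.186, adjusted p 0.917) to 0.27 in d3 clone 12, and those of Mirg from -0.24 in d6 clone 16 to 0.55 in i12 clone 10 (SE 0.291, adjusted p 1.00). Those of Dio3 ran from -0.83 in i10 clone 18 to 1.33 in i7 clone 12, with an SE of 1.23 for the latter, so changes of more than 2-fold in Dio3 could not be told from the spread between replicates. Rtl1 in i12 clone 10, with a log2 change of 1.96 (SE 0.673), had an unadjusted p of 0.00963 and an adjusted p of 1.00 in edgeR.

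**Figure D2:**
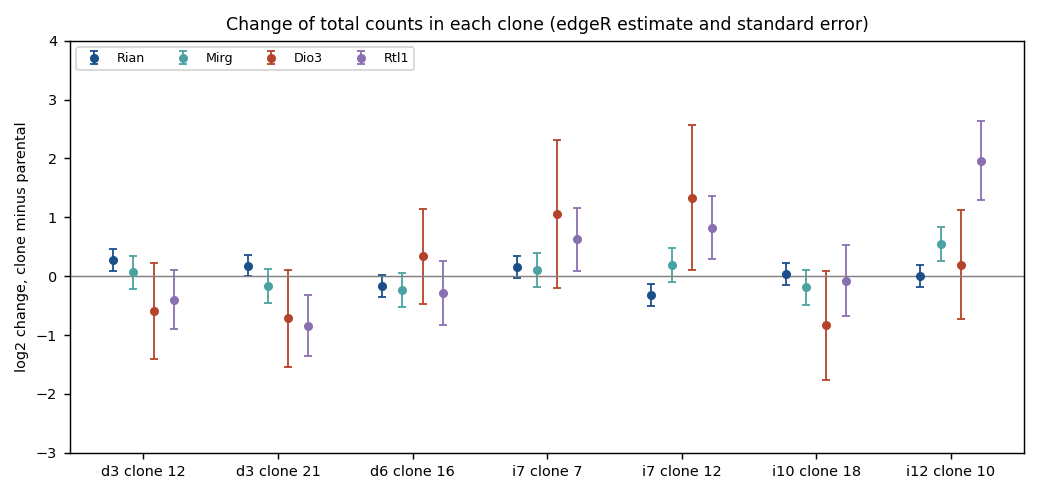
Log2 change of total counts in each recombined clone against its parental line for Rian, Mirg, Dio3 and Rtl1; points are edgeR estimates and bars 1 standard error. Rian and Mirg lie between -0.32 and 0.55 in every clone, and the bars of Dio3 and Rtl1 are several times longer than those of Rian.

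Unadjusted p-values under 0.05 in edgeR were found for Rtl1 in 1 of the 7 comparisons and for Dio3os in 2, and for no other cluster gene. Of all 16253 genes, 48 (i7 clone 7) to 1006 (i7 clone 12) had such a p in a comparison. The i12 parental line and i10 clone 18 held no count of Dio3os. Libraries that did not overlap between clone and parental line were common among all genes. Rian was lower in i7 clone 12 (25.0% of all genes were) and higher in i10 clone 18 (8.61%). In i10 the nearest libraries, replicate 2 of clone 18 and of the parental line, had 864.5 and 863.6 CPM. Scaled to raw library totals they had 862.5 and 869.5, so the libraries then overlapped. Mirg was lower in d6 clone 16 (8.99%) and higher in i12 clone 10 (9.57%). Dio3 was lower in d3 clones 12 (11.3%) and 21 (12.7%) and higher in i7 clones 7 (13.8%) and 12 (24.2%). Rtl1 was lower in d3 clone 21 and higher in both i7 clones and in i12 clone 10. Dlk1 and Dio3os were lower in d3 clone 12 and in i10 clone 18 (8.64%), and Dio3os was higher in i12 clone 10. The other pairs of gene and clone overlapped with the parental line.

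The clones of 1 recombination were compared with each other. No cluster gene was called between the d3 clones or between the i7 clones, where 0.0708% of gene tests were called. Rian differed most between i7 clones 12 and 7 in relation to its error, with a log2 difference of -0.47 (SE 0.186, unadjusted p 0.0205, adjusted p 0.474 in edgeR). Averaged over the 5 recombinations, none of the 6 genes was called, against 0.0123% of all genes. The mean log2 changes were 0.00 for Rian (SE 0.0788), 0.04 for Mirg (SE 0.122), 0.05 for Dio3 (SE 0.361) and 0.34 for Rtl1 (SE 0.250). No mean is given for Dlk1 and Dio3os, because the i12 parental libraries held no count of either. A joint test of whether the 5 recombination effects differed, added after the data had been seen, called none of the 6 genes, against 0.0123% of all genes. Its unadjusted p was 0.0413 for Rtl1 and 0.0437 for Dio3os, with adjusted p of 1.00 for both in edgeR.

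Differences among the parental lines themselves give the background to the clone comparisons. Over the 5 lines jointly, 6.64% of genes were called and no cluster gene was. The joint edgeR test gave an unadjusted p of 0.0105 for Dlk1 (adjusted p 0.0869) and 0.0190 for Dio3 (adjusted p 0.118), and 0.0606 to 0.143 for the other 4 genes. An unadjusted p under 0.05 was common in this test, with 4272 of 16253 genes. Over the 10 pairs of lines, 1.85% of gene tests were called, again none of a cluster gene. Dio3 was lowest in the i7 line, with log2 differences of 3.91 for d3 minus i7 (SE 1.09), 4.07 for d6 minus i7 (SE 1.10) and -4.00 for i7 minus i10 (SE 1.12), and the adjusted p in edgeR was 0.0543, 0.0927 and 0.0945. Over its 30 alternative fits the adjusted p of the d3 against i7 difference ran from 1.01e-06, without a filter on low counts, to 0.342, without replicate 1 of the i7 line, and 8 alternatives called it. The i7 minus i10 difference rested on replicate 1 of the i10 line: without it, the value was -1.17 (adjusted p 0.827). The i7 line held 5 Dio3 counts in all, and its libraries, with 7358368 and 10922801 counts, were deeper than those of i10 and i12. Dlk1 had an unadjusted p under 0.05 in 5 of the 10 pairs. Of 16253 genes, 264 (i12 against i10) to 4056 (d3 against i7) had one in a pair. Dlk1 was higher in the d3 than in the i7 line by 2.95 on the log2 scale (SE 0.965, adjusted p 0.0837), on 28 against 3 counts. For d3 against the i12 line, which held no count, the adjusted p was 0.0617. Without a filter on low counts both pairs were called, and over 28 alternatives the adjusted p of the d3 against i7 difference ran from 0.0327 to 0.409. For Mirg the d6 minus i7 difference was 0.92 (SE 0.289, adjusted p 0.140). For Rian the d3 minus d6 difference was -0.49 (SE 0.186, adjusted p 0.186). Without replicate 1 of the d3 line, Rian was called between the d3 line and the d6, i10 and i12 lines, so that 1 library decided those calls.

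The alleles were then compared within each group. The columns could separate the alleles: on chromosome 14 of d3 clone 21 the 129S1 share of the median gene was 0.386% and 0.526% in the replicates, over 361 genes, while the remaining 22 libraries had 49.2% to 54.9%. The 361 genes were picked for a summed share of 20% to 80% in these 22 libraries, which favours a value near 50% there. In the d3 clone 21 libraries 10.2% of those genes had a 129S1 share above 20%, and how reads without an informative variant were counted was not given in the sources used here. On chromosome 12 the median gene had a 129S1 share of 49.1% to 50.8% in every library, over 384 genes. These genes, without the members, were picked for a share of 20% to 80% over all libraries. A median near 50% was thus favoured by the choice and is no test of balance. For the 12774 genes that averaged 20 counts or more, the share over all libraries had a median of 49.95%, with the 5th percentile at 1.68% and the 95th at 93.4%.

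Rian was counted from both alleles in nearly equal numbers. Over all libraries 81267 counts were assigned to 129S1 and 81644 to CAST, a share of 49.9%, and the shares of single libraries ran from 46.4% to 54.8%. In d3 the 129S1 share was 52.5% and 54.8% in the parental line, 51.2% and 53.3% in clone 12 and 52.3% and 52.1% in clone 21. In i7 it was 46.5% and 46.4% in the parental line, 48.3% and 47.3% in clone 7 and 48.1% and 48.5% in clone 12. All 6 d3 libraries were thus above all 6 i7 libraries, by a few percentage points, and the other recombinations lay between 46.7% and 50.8%. For all genes, such a separation of d3 from i7 was not counted. How reads that match both alleles were assigned to the columns was not given in the sources used here, and the part of such reads in the share of Rian was not tested. Both alleles active in each cell and different alleles active in different cells cannot be told apart in these bulk counts.

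Within groups, Rian was called in 2 of 12, with 129S1 higher in the d3 parental line (log2 ratio of 129S1 over CAST 0.21, SE 0.0758, adjusted p 0.0233) and CAST higher in the i7 parental line (-0.21, SE 0.0758, adjusted p 0.0261) in edgeR. Among all genes and groups 53.2% of such tests were called, 26.6% with each allele higher. Leaving out replicate 2 of the d3 line, or either replicate of the i7 line, ended these calls, with adjusted p of 0.271, 0.135 and 0.158. With separate TMM scaling of the 2 alleles the d3 call was also lost (log2 ratio 0.11, adjusted p 0.230), and Rian was called in i7 clone 7 (-0.20, adjusted p 0.0296). The difference of the log2 ratio between the d3 and i7 parental lines was 0.42 (SE 0.107, unadjusted p 9.05e-04, adjusted p 0.113 in edgeR), and it was not called in any of 28 alternatives (adjusted p 0.0718 to 0.504).

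**Figure D3:**
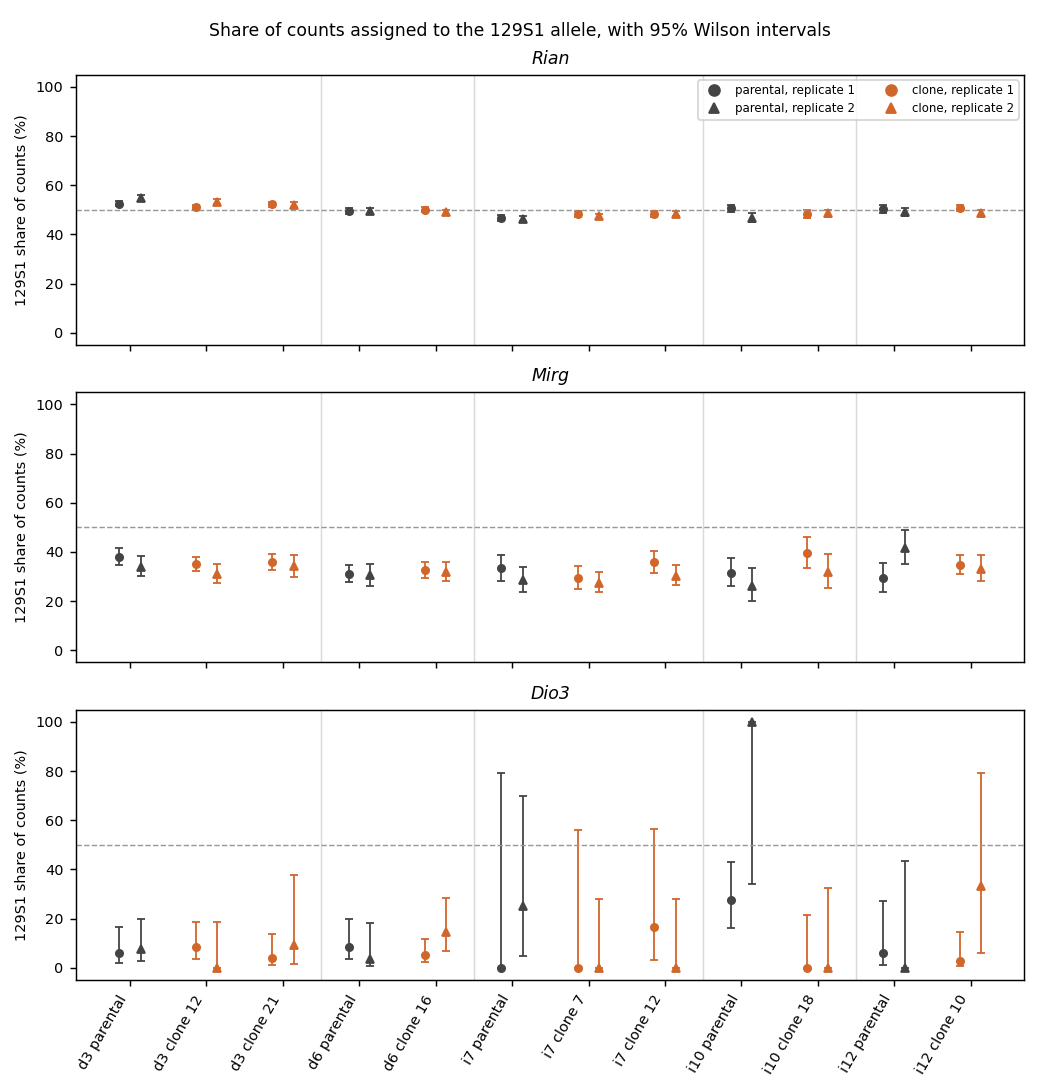
Share of each library's counts assigned to the 129S1 allele, in percent, for Rian, Mirg and Dio3; bars are 95% Wilson intervals, the dashed line marks equal counts, circles and triangles are replicates 1 and 2. Rian lies between 46.4% and 54.8%, Mirg between 26.1% and 41.7%, and Dio3 is below 50% in 23 of 24 libraries, with wide intervals where counts are few.

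Mirg was counted more from CAST in all 24 libraries. Over all libraries 3607 counts were assigned to 129S1 and 7285 to CAST, a share of 33.1%. In d3 the share was 37.9% and 34.0% in the parental line, 35.1% and 31.1% in clone 12 and 35.7% and 34.1% in clone 21. In d6 it was 31.0% and 30.4% in the parental line and 32.6% and 31.8% in clone 16. The intervals of single libraries were wide in the shallow recombinations: the highest share, 41.7% in replicate 2 of the i12 parental line, had a Wilson interval of 34.9% to 48.7%, and the lowest, 26.1% in replicate 2 of the i10 parental line, one of 19.9% to 33.4%. The remaining libraries of i7, i10 and i12 lay between 27.5% and 39.5%. The log2 ratio of 129S1 over CAST ran from -1.33 (SE 0.145, adjusted p 6.61e-08) in i7 clone 7 to -0.83 (SE 0.129, adjusted p 1.04e-05) in the d3 parental line, and edgeR called it in 12 of 12 groups. Of all gene tests 26.6% were called with CAST higher. Of the 12774 genes tested in the ratio, 15.8% had a share at or below that of Mirg. In the i12 parental line the call was lost without replicate 1 (log2 ratio -0.49, adjusted p 0.0882).

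Dio3 was counted mostly from CAST. Over all libraries 48 counts were assigned to 129S1 and 543 to CAST, a share of 8.12%. Of the 12774 genes tested in the ratio, 7.26% had a share at or below it. In d3, 129S1 and CAST had 3 and 46 counts and 3 and 37 in the parental libraries, 5 and 53 and 0 and 17 in clone 12, and 2 and 47 and 1 and 10 in clone 21. In d6 they had 4 and 43 and 1 and 26 in the parental line and 5 and 89 and 6 and 35 in clone 16. The bias was thus present in each of the 10 libraries of d3 and d6, with shares from 0% to 14.6%. In i7, 2 of 34 counts were from 129S1, and in i12, 3 of 60.

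The i10 parental line differed in direction between its replicates. Replicate 1 had 11 counts from 129S1 and 29 from CAST, a share of 27.5% with a Wilson interval of 16.1% to 42.8%, and replicate 2 had 2 counts from 129S1 and none from CAST. In i10 clone 18 all 22 counts were from CAST, at least 7.33-fold more than from 129S1 when 129S1 was set to the floor of 3 counts over the group, and in i7 clone 7 all 13 were, at least 4.33-fold more. The ratio of Dio3 in i10 clone 18 against its parental line had an unadjusted p of 0.00860 and an adjusted p of 1.00 in edgeR.

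The allele difference of Dio3 was called in 10 of 12 groups, all with CAST higher, where 26.6% of all gene tests were. It was not called in the i7 parental line (5 counts) or the i10 parental line (log2 ratio -1.09, SE 0.625, adjusted p 0.167). Dio3 met the filter on counts through d3 and d6, with 433 counts in 10 libraries. The 14 libraries of i7, i10 and i12 held 158, so the calls in these groups rest on few counts and add little. In d3 and d6 the log2 ratio ran from -4.09 (SE 0.711, adjusted p 5.21e-05) in d3 clone 21 to -3.42 (SE 0.479, adjusted p 4.40e-06) in d6 clone 16. Leaving out 1 replicate ended the call in 5 groups, among them d3 clone 21 (without replicate 1, adjusted p 0.0671) and i12 clone 10 (without replicate 1, adjusted p 0.751). The others were the i12 parental line without replicate 1 (adjusted p 0.108), i7 clone 12 without replicate 2 (0.271) and i7 clone 7 without replicate 2 (0.187).

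The remaining members were too sparse for the test of the ratio. Dio3os, next to Dio3, had 5 counts from 129S1 and 55 from CAST, a share of 8.33%, and CAST was the higher in all 18 libraries where the 2 columns differed. Dlk1 had 54 counts from 129S1 and 89 from CAST. In d3 clone 12 its share was 35.3% and 53.8%, on 17 and 13 counts. It was 43.8% and 41.7% in the libraries of the d3 parental line and 12.5% and 20% in those of clone 21, on 12 to 16 counts a library. The Wilson intervals of these libraries overlapped (19.3% to 68.0% in parental replicate 2, 7.05% to 45.2% in clone 21 replicate 2), and the difference was not tested. In d6 the Dlk1 share was 63.6% and 60% in the parental line and 20% and 18.2% in clone 16, on 5 to 11 counts. Of genes averaging 20 counts or more, 16.6% had a lower share without overlap in d3 clone 21 and 14.1% in d6 clone 16. Dlk1 itself fell below that filter. Rtl1 had 188 counts from 129S1 and 146 from CAST, with 129S1 the higher in 12 libraries and CAST in 9. In the textbook arrangement Dlk1, Rtl1 and Dio3 share the paternal copy. In these counts Dio3 was mostly from CAST, and Dlk1 and Rtl1 were counted from both alleles. Rian and Mirg share the maternal copy in that arrangement. Here Rian was counted nearly equally from both alleles, and Mirg, with a 129S1 share of 33.1%, was higher from CAST, as Dio3 was.

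The ratio was compared between clones and parental lines for Rian, Mirg and Dio3, the 3 members with enough counts. None was called in any of the 7 clone comparisons, where 0.731% of gene tests were called, or between clones of 1 recombination, where 2.46% were. The log2 ratio of Rian changed by -0.08 to 0.11 over the 7 clones and that of Mirg by -0.17 to 0.44, the latter in i10 clone 18 (SE 0.248, unadjusted p 0.0939, adjusted p 1.00 in edgeR). Among the parental lines the joint test called 1.1% of genes and the pairs 0.328% of gene tests, none of them a cluster gene. The joint unadjusted p of Rian was 0.0160 (adjusted p 0.252), and 1672 of 12774 genes had one under 0.05. The added joint test of the recombination effects called 2.45% of genes and none of Rian, Mirg and Dio3, with unadjusted p of 0.110 to 0.768.

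Other imprinted genes were read in the same way, as a background for the shares. Of 30 listed, 15 had enough counts, and 13 of these had a 129S1 share between 20% and 80% over all libraries, with a median of 49.9% and a range of 28.0% to 86.7%. Of the 6 most abundant, Igf2r, a receptor that removes IGF2, had a share of 51.5%, Snrpn 40.0%, the zinc finger gene Peg3 37.8%, the transcription factor gene Plagl1 70.7%, the amino acid transporter gene Slc38a4 28.0% and Sfmbt2, which encodes a Polycomb protein, 86.7%. Dio3 had a lower share than any of the 15. In total counts no gene of this list was called in a clone comparison or in the mean effect, where 0.0149% and 0.0123% of all gene tests were. The 24 genes tested had medians of -0.06 to 0.12 on the log2 scale, where the median of all genes was -0.01 to 0.01. In the ratio of clones against parental lines, 1 call was made, Sfmbt2 in i7 clone 12, with the ratio shifted to 129S1 by 2.42 (SE 0.270, adjusted p 1.29e-05 in edgeR). Of all genes, 1.92% were called in that comparison. The list also had 1 ratio call between the i7 clones and 1 in the joint test of the recombination effects. A further 3 came in the joint test of the parental lines, and others between pairs of lines.

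**Figure D4:**
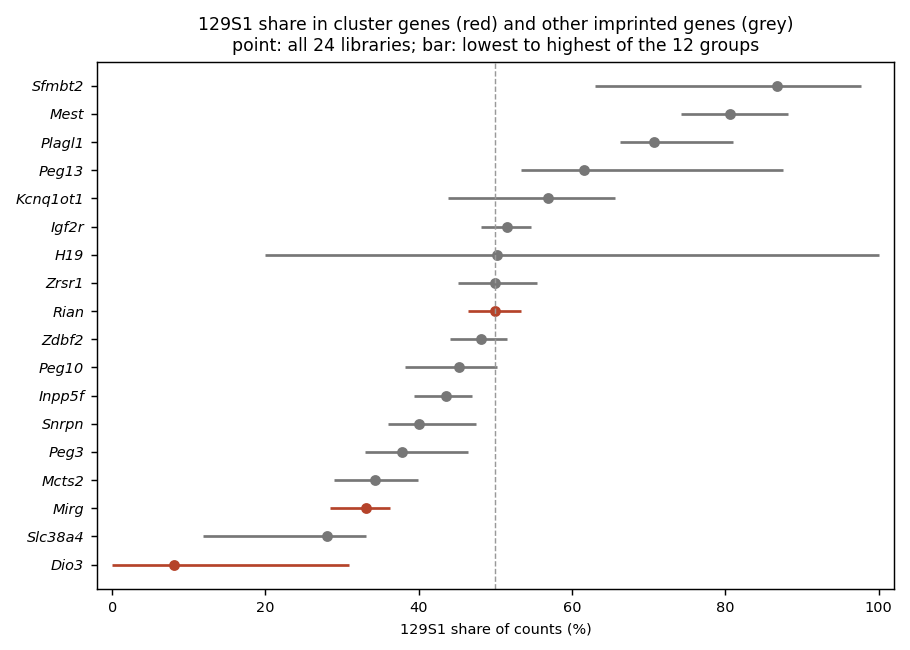
Share of counts assigned to the 129S1 allele, in percent, for 3 cluster genes (red) and 15 other imprinted genes (grey); points are all 24 libraries together, bars run from the lowest to the highest of the 12 groups, and the dashed line marks equal counts. Rian lies at 49.9%, Mirg at 33.1% and Dio3 at 8.12%, the lowest point shown.

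Genes with roles around the cluster were counted from lists. Of all gene tests in total counts, 0.0149% were called in the clone comparisons and 0.0123% in the mean effect. The absence of calls in lists this short therefore says little about their genes. Of 17 regulators of imprints and DNA methylation, among them Zfp57, Trim28 and Dnmt1, 16 were tested and none was called in total counts in a clone comparison or in the mean effect, where the list's median log2 change was 0.02 against 0.00 for all genes. Of 16 genes that flank the cluster on chromosome 12, 15 were tested and none was called, with a median of 0.04 in the mean effect. Of 17 Notch pathway genes 12 were tested, with a median of 0.03, and of 11 genes of thyroid hormone handling 5 were tested, with a median of -0.05, and none of either list was called in a clone comparison or in the mean effect. In the ratio, 12 of the flanking genes had enough counts, with a median 129S1 share of 43.4%. Their shares ran from 1.73%, below the 8.12% of Dio3, to 99.3%, and 10 lay between 20% and 80%.

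The stretch between Dlk1 and Dio3 held 113 annotated genes of the table, and 107 were not members. Of these, 16 had any count and 5 had at least 10 over all libraries. B830012L14Rik, a noncoding RNA between Rian and Mirg, had 41 counts from 129S1 and 70 from CAST, and Gm37899 in the same gap had 11 and 30. Gm34081, between Dlk1 and Rtl1, had 30 and 32, and Gm27528 had 1 and 9. Gm9661, a processed pseudogene beyond Mirg, was the 1 with more counts from 129S1, 15 against 2, and reads of a pseudogene may be shared with its parent gene. Any count was seen for 4 of the 67 microRNA genes (10 counts together) and for 3 of the 23 small nucleolar RNA genes (4 together).

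Over the 24 libraries, which share lines and sequencing depth, the log2 CPM of members was compared as a description. Mirg correlated with Dio3 (Pearson r 0.67) and Dio3os (0.62) more than with Rian (0.42), the other noncoding RNA on the same strand. Outside the cluster the 5 genes closest to Rian were Lrp11 (r 0.89), Slc30a4 (0.84), Golm1 (0.84), Atp10d (0.83) and Nid1 (0.83). The 5 closest to Dlk1 were Serpina3i (0.85), Serpina3h (0.81), Asb16 (0.80), Zbbx (0.79) and Obsl1 (0.79), of which Serpina3i and Serpina3h are near-identical neighbours whose reads may be shared. Of the 24 values of Dlk1, 12 rested on at most 3 counts, as did 20 of Dio3os and 4 of Dio3.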

How the data were processed

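Poly(A) RNA of 24 libraries was sequenced as single-end 75-base reads from stranded libraries, per the labels' protocols. The authors deposited raw counts per gene, with a 129S1 and a CAST column for each library. The submitters' processing notes name mm10, STAR and SAMtools, and the counting program, annotation and strand setting, and how reads that match both alleles were treated, were not given in the sources used here. Of 48985 identifiers, 48838 matched GENCODE M21 without the version number, and the others held 0.0148% of counts.

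The counts of both alleles were added and tested with edgeR 4.0.16 in R 4.3.3 (TMM, filterByExpr, quasi-likelihood, 1 fit of 12 groups, 16253 genes, 12 residual degrees of freedom, biological coefficient of variation 0.246). CPM used TMM-scaled totals. The ratio of alleles was tested in the 12774 genes that averaged 20 counts or more over both alleles, in a fit with 1 term for each library and 1 allele term for each group. A gene was called when its adjusted p (Benjamini-Hochberg, over all genes) was under 0.05. The series' design text calls the replicates biological duplicates. Intervals are 95% Wilson intervals and, like the floor of 3 counts, cover counting error only. The tests were tried on simulated data. Alternatives used DESeq2 1.42.0, other filters and scalings, a replicate block and each library left out. Python 3.11.15 with pandas 2.3.3 did the rest.

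Cluster genes, lists and tests were chosen with earlier results of these data known. The text names all members, genes between Dlk1 and Dio3 with at least 10 counts, list genes called in a clone comparison (at most 3 a list), the 6 most abundant other imprinted genes and the 5 genes most like Rian and Dlk1.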

Additional observations from a re-analysis of the deposited data

How the results depend on the processing

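No call of a cluster gene between clone and parental line, in total counts or in the ratio, or in the mean effect was made under any alternative run, leave-one-out included. The number of calls of members, with each pair of gene and comparison counted once, otherwise moved as follows. The calls between pairs of parental lines were all of Dio3 with DESeq2, and of Dio3, Dlk1 and Mirg without a filter on low counts. Between pairs of parental lines, 0 were called, against 3 with DESeq2, 8 without a filter on low counts, 1 with the stricter filter, 1 in fits of the 2 lines alone and 0 to 3 with 1 library left out. In the joint test of the lines, 0 were called, against 2 with DESeq2, 2 without the filter and 0 to 1 with 1 library left out. Within groups, 24 ratios were called, against 14 with at least 10 counts per allele, 14 with a mean of at least 50 counts, because Dio3 was then not tested, and 22 to 24 with 1 library left out. In the ratio fits that leave out a library, comparisons without that library kept their value. In fits with 1 replicate left, the lone sample is assumed to vary like the other groups.

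Whether equal replicate numbers mark a shared day or batch is not stated in the labels, so the replicate block is given only here. Differences between replicates correlated over genes with r of 0.293 to 0.648 (9 pairs of groups of the same recombination) and -0.180 to 0.562 (57 pairs of different recombinations). With the replicate block, 7 calls were made in pairs of parental lines, all of Dio3, Dlk1 or Mirg. In the joint test of the lines 3 members were called. Between clones of the same recombination 1 call was made (Rian, i7 clone 12 against clone 7, adjusted p 0.0276 in edgeR). No other number of calls of members moved by over 1.5 times. The Dio3 log2 ratio of the i10 parental line, -1.09, turned to 1.45 (adjusted p 0.478) with the replicate block, and leaving out 1 library gave -1.39 to 5.43, the latter from 2 counts. The Rian log2 ratio, not called in these groups, crossed 0 with 1 library left out, at -0.0577 to 0.0003 in d6 clone 16, -0.19 to 0.0367 in the i10 parental line, -0.0833 to 0.0444 in i12 clone 10 and -0.0488 to 0.0219 in the i12 parental line. The cause of these changes was not tested. Depth limited Dlk1, Rtl1 and Dio3os, with 143, 334 and 60 counts in all.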
